A study of Mus musculus with 20 samples.

Results

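Eosinophil-associated ribonucleases and the proteins of the eosinophil granule were examined at the RNA level in sorted macrophages. The set was chosen by gene symbol and held 8 genes, which were the ribonuclease genes Ear1, Ear2, Ear6 and Ear10, the granule protein genes Epx and Prg2, and the surface receptor genes Siglecf and Il5ra. Of these, 7 of 8 were found among 14191 genes, and Ear10 was not analysed here. RNA came from cells of male mice that were positive for both F4/80 (encoded by Adgre1) and CD11b (encoded by Itgam) in visceral adipose tissue (VAT) or spleen. The 20 libraries fell into 6 groups by tissue, age and genotype. VAT gave 3 libraries from wild-type animals aged 3 months, 4 at 24 months, and 4 at 24 months from Nlrp3-/- animals, in which the gene of an inflammasome sensor is disrupted. Spleen gave 2, 4 and 3 libraries of these kinds. No Nlrp3-/- library is of the younger age. The labels do not say whether the libraries came from separate animals, so p-values measure the spread between these libraries, which may be partly technical.

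Eosinophils store cationic proteins in their granules and release them on activation. Epx encodes eosinophil peroxidase and Prg2 encodes major basic protein, and both are made mainly while eosinophils mature. The Ear genes encode secreted ribonucleases of the RNase A family that expanded in rodents into many similar copies in a cluster on 1 chromosome. Ear1 and Ear2 are also expressed by some macrophages, among them those of the lung alveoli, and Siglecf is a surface lectin of both eosinophils and alveolar macrophages. Il5ra encodes the specific chain of the receptor for interleukin 5, the main growth and survival signal of eosinophils. Mouse eosinophils can carry both F4/80 and CD11b, so the sort does not remove them by design. In bulk RNA, fewer cells of a type and less RNA per cell cannot be told apart.

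The windows of 300 bases around the start of Ear1, Ear2, Ear6 and Epx are shown because Ear1 and Ear2 moved together in VAT, where Ear6 and Epx were close to absent. They come from RefSeq for GRCm38.p6 and lie at chr14:43819590-43819889 (Ear1, minus strand), chr14:44102404-44102703 (Ear2, plus strand), chr14:51853518-51853817 (Ear6, plus strand) and chr11:87875487-87875786 (Epx, minus strand). Each is printed in the direction of its gene. In the other annotation used here (GENCODE), Ear1 spans 43818765 to 43875517 on the minus strand. Its start there, 43875517, lies outside the Ear1 window. Capitals mark TTATC, the reverse complement of the GATA factor motif GATAA.
Ear1: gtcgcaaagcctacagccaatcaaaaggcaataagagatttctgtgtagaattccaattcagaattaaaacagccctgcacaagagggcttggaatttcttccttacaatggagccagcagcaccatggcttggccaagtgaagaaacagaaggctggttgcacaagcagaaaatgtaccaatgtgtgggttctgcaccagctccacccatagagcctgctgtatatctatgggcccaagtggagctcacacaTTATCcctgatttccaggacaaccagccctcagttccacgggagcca
Ear2: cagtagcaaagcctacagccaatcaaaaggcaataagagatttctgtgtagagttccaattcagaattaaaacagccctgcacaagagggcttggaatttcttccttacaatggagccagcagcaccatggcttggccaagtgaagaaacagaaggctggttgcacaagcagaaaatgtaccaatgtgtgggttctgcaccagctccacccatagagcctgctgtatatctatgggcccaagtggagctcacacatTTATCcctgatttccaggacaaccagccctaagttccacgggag
Ear6: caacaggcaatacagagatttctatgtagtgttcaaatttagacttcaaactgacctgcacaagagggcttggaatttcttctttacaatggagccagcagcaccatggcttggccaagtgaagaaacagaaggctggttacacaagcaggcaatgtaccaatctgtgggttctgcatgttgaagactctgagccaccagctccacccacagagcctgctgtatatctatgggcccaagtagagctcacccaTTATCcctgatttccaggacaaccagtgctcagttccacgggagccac
Epx: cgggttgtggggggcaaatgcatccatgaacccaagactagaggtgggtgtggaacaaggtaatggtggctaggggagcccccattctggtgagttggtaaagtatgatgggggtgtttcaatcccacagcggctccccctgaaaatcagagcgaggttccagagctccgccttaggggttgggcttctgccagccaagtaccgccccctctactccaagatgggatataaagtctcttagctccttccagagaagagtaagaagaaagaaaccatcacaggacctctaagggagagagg

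In an alignment of these windows Ear1 and Ear2 were 97.0% identical, at 294 of 303 columns. Ear6 was 80.7% identical to Ear1 and 79.0% to Ear2, while Epx was 46.4% identical to Ear1. The capitals begin 3 bases after the annotated first base in Ear1, 6 after it in Ear2 and 2 after it in Ear6. The motif GATAA, searched on both strands, also had 1 match in the windows of Ear10, Siglecf and Il5ra and 0 in that of Epx. It was present in 25.4% of 32851 promoter windows of the same length. The C/EBP motif TTGCNNAA was matched once in each of Ear1, Ear2 and Ear10 and in none of Ear6, Epx, Siglecf and Il5ra, against 10.8% of all windows. A STAT motif, TTCNNNGAA, was matched in 0 of the 7 windows of the set, against 8.3% of all windows. A PU.1 motif, GAGGAA, was matched in those of Siglecf and Il5ra, against 28.3%. These are matches of letters and do not show that a factor binds there.

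Because the Ear genes are near copies of each other, their counts were examined for shared reads. Ear3 and Ear12, 2 further members of the family, held identical values in 13 of 13 wild-type libraries and in 11 of 11 VAT libraries. They are therefore given as 1 measurement. No other pair of Ear genes held the same values across a table. The longest annotated transcripts of Ear1 (chromosome 14, 43818765 to 43875517, mm10) and Ear2 (chromosome 14, 44102654 to 44103534) were 96.0% identical. Of the 50-base stretches of Ear1, 23.8% also occurred in Ear2, and of those of Ear2, 23.6% occurred in Ear1 and 26% in Ear10. Only 1.0% of the stretches of Ear6 (chromosome 14, 51853699 to 51854643) occurred in another Ear gene compared here. No transcript of Ear3 or Ear12 was available, so stretches shared with these genes were not counted. How reads that match several copies were counted is not given in the sources used here. The split of reads between Ear1, Ear2, Ear10, Ear3 and Ear12 is therefore uncertain. That of Ear6 is less so among the genes compared.

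Values are normalised read counts, deposited in 3 tables that were scaled separately: 1 of all wild-type libraries, 1 of VAT and 1 of spleen. Libraries held 24.1 to 37.5 M reads in genes. At 95% confidence a count of 0 allows at most 3 reads, which correspond to 2.33 to 3.85 normalised counts. An entry of 1 is the lowest a library shows. Nlrp3 stood at 2708 to 4254 in 24-month wild-type VAT and at 6.15 to 10.5 in the Nlrp3-/- libraries of VAT, with 200.4 in replicate 4. In spleen at 24 months it stood at 341 to 663 and at 1 to 3.61. The pan-macrophage markers, 11 genes, summed to between 760640 and 931304 in wild-type VAT and between 162805 and 304943 in wild-type spleen. The 13 neutrophil markers found summed to between 5760 and 18367 in VAT and between 193163 and 862487 in spleen. The part of these in the tissue differences was not tested. Of the 6 eosinophil-defining genes (Epx, Prg2, Prg3, Ccr3, Il5ra and Siglecf), Epx stood at 1 in all wild-type VAT libraries, and the sum was 1095 to 3986 in VAT and 9353 to 23946 in spleen.

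The tissue comparison asked where these genes were found. The granule genes Epx and Prg2 were far higher in spleen at both ages, Ear6 was higher in spleen, and Ear2 was higher in VAT. Ear1 and Il5ra were higher in spleen at 24 months, and Siglecf did not pass the test at either age. At 24 months 6 of the 7 genes were called, 1 higher and 5 lower in VAT, against 49.1% of all genes tested, 26.6% higher and 22.5% lower. At 3 months 4 of 7 were called, 1 higher and 3 lower in VAT, against 41.9%, 23.2% higher and 18.7% lower. A call is therefore common in this contrast, and so are groups that do not overlap, in 43.3% of all genes at 24 months and 62.4% at 3 months. The median log2 difference of the 7 genes was -2.87 at 24 months and -0.87 at 3 months, beside 0.02 and 0.07 over all genes. Log2 differences below are of log2(value + 1), which understates the change of genes near 1, and folds are ratios of group means of normalised counts.

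**Figure D1:**
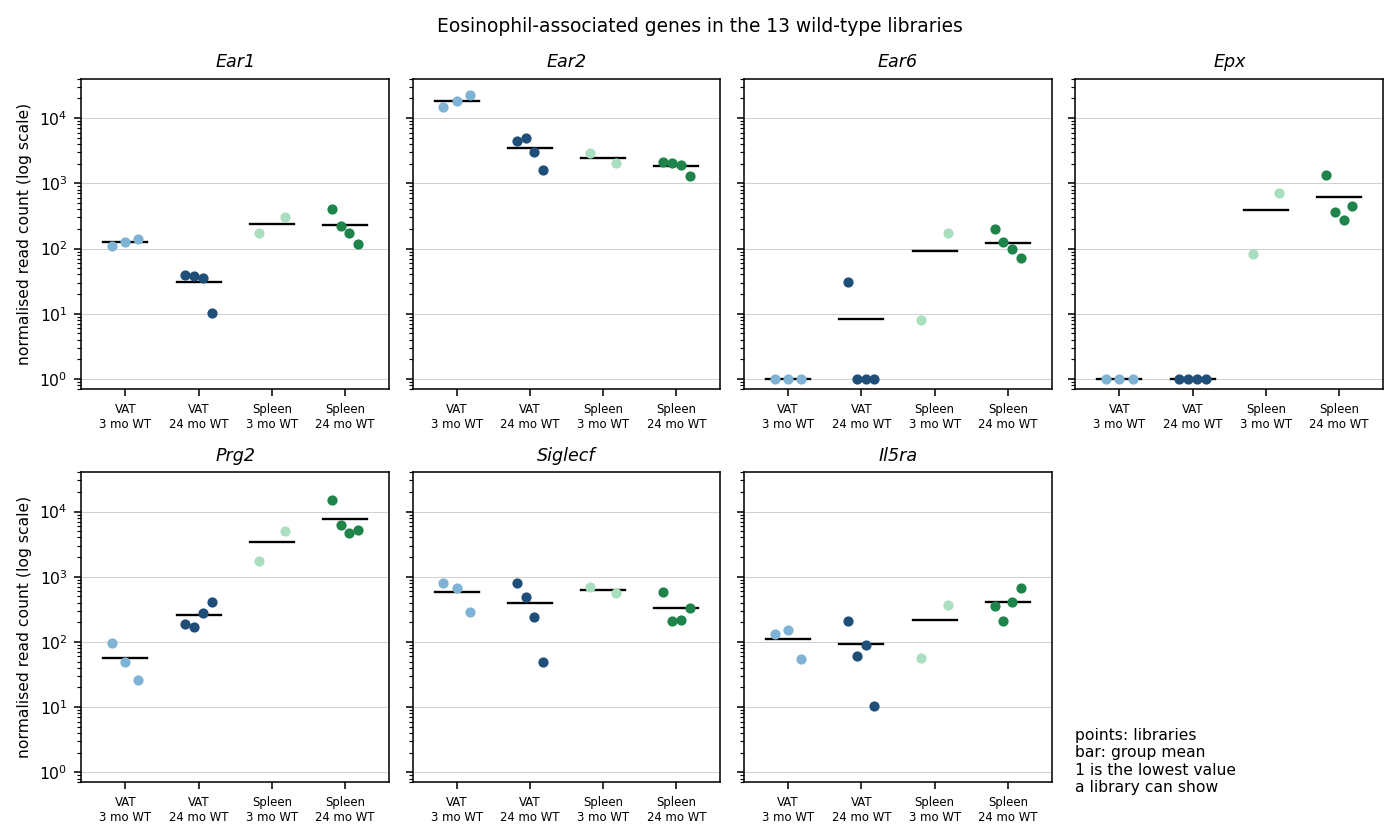
Normalised read counts (log scale) of the 7 genes in the 13 wild-type libraries, 1 panel a gene. Points are libraries and bars are group means. Epx stands at 1 in all VAT libraries, and Ear2 reaches 22793 in 3-month VAT.

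Of Ear1, Ear2 and Ear6, Ear2 had the highest mean level per kilobase of exon in each wild-type group. In 3-month VAT it stood at 14972, 18106 and 22793, and in 24-month VAT at 4424, 4948, 3063 and 1621. In spleen it stood at 2890 and 2026 at 3 months and at 2141, 2083, 1910 and 1291 at 24 months. The 3-month VAT libraries lay above all others, and the ranges of 24-month VAT and of both spleen groups overlapped. VAT exceeded spleen by 2.92 on the log2 scale at 3 months (SE 0.37, adjusted p = 1.36e-05) and by 0.83 at 24 months (SE 0.29, adjusted p = 0.0256). The 24-month call was lost without VAT replicate 1 (0.0847) or 2 (0.0965) and without spleen replicate 4 (0.0837), in a range of 4.81e-04 to 0.0965 over the alternatives.

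Ear1 ran the other way. It stood at 109.6, 125 and 139 in 3-month VAT and at 39.8, 37.8, 35.8 and 10.4 in 24-month VAT. In spleen it stood at 172 and 299.7 at 3 months and at 407, 222, 174 and 118 at 24 months. Each 24-month VAT library lay below each spleen library of that age, and the log2 difference was -2.87 (SE 0.50, adjusted p = 2.18e-04). At 3 months it was -0.87 (SE 0.65, adjusted p = 0.306).

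The ratio of Ear2 to Ear1 within a library therefore separated the tissues. In VAT it was 137, 145 and 164 at 3 months and 111, 131, 85.6 and 155 at 24 months. In spleen it was 16.8 and 6.76 at 3 months and 5.27, 9.38, 11 and 10.9 at 24 months. Every wild-type VAT library had a higher ratio than every wild-type spleen library, and in VAT the ranges of the 2 ages overlapped. Per kilobase of exon, Ear2 came to 25900 ± 5470 (SD, n = 3) and Ear1 to 170.5 ± 19.9 in 3-month VAT. In 24-month spleen they came to 2582 ± 541 (SD, n = 4) and 315.4 ± 171.

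**Figure D2:**
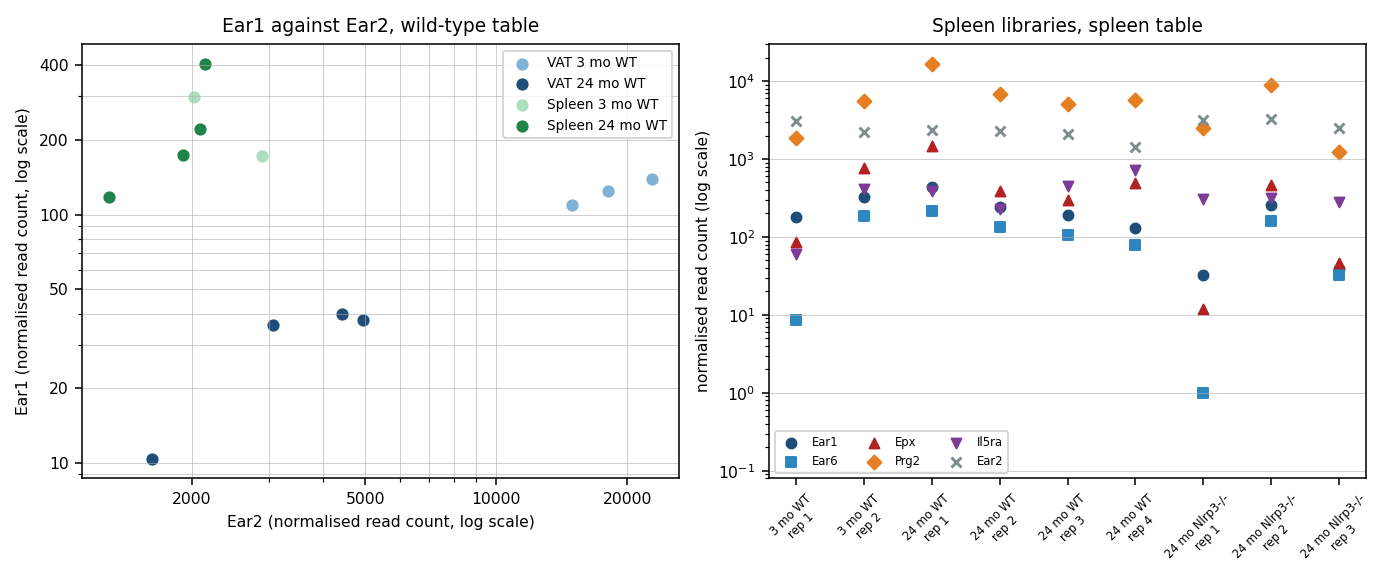
Left, Ear1 against Ear2 (normalised read counts, log scales) in the 13 wild-type libraries. Each VAT library has a higher ratio of Ear2 to Ear1 than each spleen library. Right, 6 genes of the set in the 9 spleen libraries of the spleen table (log scale), where Ear6 stands at 1 in Nlrp3-/- replicate 1.

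Ear6 was close to absent from VAT. All 3 libraries of 3-month VAT stood at 1, and 24-month VAT stood at 30.7, 1, 1 and 1. Spleen stood at 8.14 and 172 at 3 months and at 198, 125, 98.8 and 72.2 at 24 months. Each spleen library lay above each VAT library of its age. At 3 months the spleen mean was at least 27.1-fold above the mean 3-read floor of the VAT libraries, a limit that became 2.45-fold without spleen replicate 2 and 51.8-fold without replicate 1. The log2 difference was -4.86 at 24 months (SE 1.01, adjusted p = 9.21e-04) and -4.31 at 3 months (SE 1.30, adjusted p = 0.0148). At 3 months the call rested on spleen replicate 2, without which it was -2.19 (adjusted p = 0.259, range 2.79e-04 to 0.259). At 24 months it was lost in edgeR with relative log expression scaling (0.0511, range 8.33e-05 to 0.0511).

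Of the other Ear family genes, 3 of 7 were tested, 2 of them the pair Ear3 and Ear12. The pair stood at 40.8, 158 and 117 in 3-month VAT, at 31.9, 17.4, 16.8 and 12.3 in 24-month VAT, and at 1 to 23.8 in spleen. It was higher in VAT at 3 months (log2 3.75, adjusted p = 0.00614), a call lost without spleen replicate 2 (log2 1.98, 0.128) and in edgeR (0.0878 with TMM and 0.0876 with RLE, range 7.63e-04 to 0.128). Rnase2a, which encodes another eosinophil-type ribonuclease, stood at 286, 304 and 211 in 3-month VAT and at 345, 167, 105 and 10.4 in 24-month VAT. It stood at 1 in all 6 wild-type spleen libraries. VAT was at least 93.8-fold higher at 3 months and at least 60.1-fold higher at 24 months (adjusted p = 9.39e-05 and 5.68e-05). The 24-month limit became 36.2-fold without VAT replicate 1. The ribonuclease genes thus fell on both sides. Ear2, Rnase2a and, at 3 months, Ear3 and Ear12 were higher in VAT, and Ear6 and, at 24 months, Ear1 were higher in spleen.

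Of 11 other genes of the RNase A superfamily and its inhibitor, 4 were tested, and 3 were higher and 1 lower in VAT at both ages. At 24 months Rnase4 stood at a mean of 27276 in VAT and 342 in spleen. Ang, which encodes angiogenin, was higher in VAT too. Rnase6, which encodes an antimicrobial ribonuclease, stood at 1208 and 4397. Rnh1, the cytosolic ribonuclease inhibitor, stood at 9995 and 5194.

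Among the granule proteins, Epx (chromosome 11, 87864000 to 87875536, mm10) stood at 1 in all 7 wild-type VAT libraries. In spleen it stood at 81.4 and 706 at 3 months and at 1342, 359.9, 272 and 455 at 24 months. By its mean, spleen was at least 119-fold higher at 3 months (adjusted p = 2.17e-05) and at least 195-fold higher at 24 months (adjusted p = 1.94e-07). The 3-month limit became 24.5-fold without spleen replicate 2 and 213-fold without replicate 1, and the 24-month limit 116-fold without spleen replicate 1. If an entry of 1 is a count of 0, the VAT libraries thus allow at most about 3 reads of Epx each, at 95% confidence.

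Prg2 (chromosome 2, 84980461 to 84983632, mm10) was detected in every library. It stood at 95.6, 49.1 and 25.7 in 3-month VAT and at 187, 171, 279.9 and 415 in 24-month VAT. Spleen stood at 1773 and 5067 at 3 months and at 15026, 6247, 4697 and 5275 at 24 months. No VAT library reached the lowest spleen library. The log2 difference was -5.89 at 3 months (SE 0.59, adjusted p = 1.24e-06) and -4.81 at 24 months (SE 0.45, adjusted p = 3.81e-07). Prg3, which encodes a second major basic protein next to Prg2, stood at 18.3 in 3-month VAT replicate 2 and at or under 3.41 in the other VAT libraries of wild-type mice. In spleen it stood at 106 and 209.8 at 3 months and at 723, 215, 311 and 185 at 24 months (24 months, log2 -6.97, adjusted p = 2.25e-06).

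The receptors differed less between tissues. Siglecf (chromosome 7, 43351341 to 43359531, mm10) stood at 792, 668 and 289 in 3-month VAT and at 806, 484, 244 and 49.4 in 24-month VAT. In spleen it stood at 707 and 554 at 3 months and at 583, 211, 217 and 330.3 at 24 months. All 4 groups overlapped, and the VAT minus spleen difference was -0.23 at 3 months (SE 0.84, adjusted p = 0.853) and -0.22 at 24 months (SE 0.65, adjusted p = 0.800). Its sign turned in edgeR and DESeq2 at 24 months.

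Il5ra (chromosome 6, 106710357 to 106749037, mm10) stood at 130.0, 150.2 and 55.2 in 3-month VAT and at 207, 61.2, 89.4 and 10.4 in 24-month VAT. In spleen it stood at 57.0 and 374 at 3 months and at 353, 211, 416 and 662 at 24 months. At 24 months the groups did not overlap, with the highest VAT library at 207 and the lowest spleen library at 211. The log2 difference was -2.65 (SE 0.77, adjusted p = 0.0102), and -1.85 without VAT replicate 4 (adjusted p = 0.0291, range 0.00319 to 0.0335). At 3 months it was -0.51 (SE 1.0, adjusted p = 0.716). Ccr3, the eotaxin receptor of eosinophils, was higher in spleen at both ages, with means of 5070 against 1367 at 24 months (log2 -2.07, adjusted p = 1.45e-04). The ratio of Ccr3 to Siglecf was 1.53 to 13.9 in wild-type VAT and 7.77 to 28.7 in wild-type spleen.

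**Figure D3:**
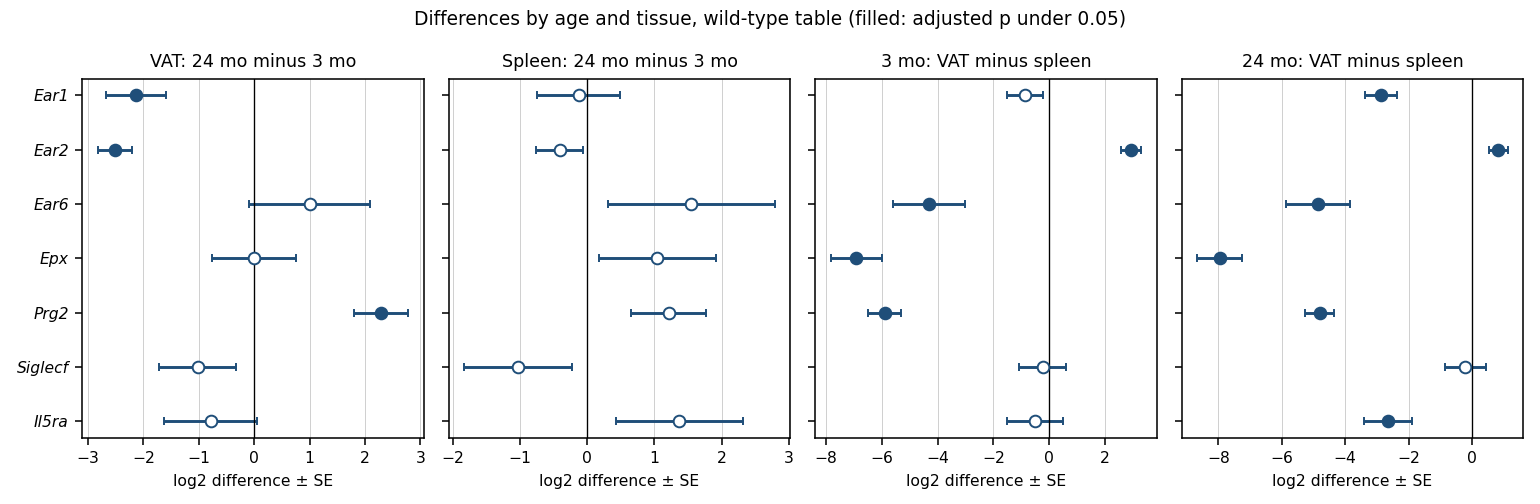
Log2 differences with standard errors of the 7 genes for age in VAT, age in spleen, and tissue at 3 and 24 months. Filled points have an adjusted p under 0.05. For age in VAT, Ear1, Ear2 and Prg2 are filled, and for age in spleen none is.

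Other eosinophil genes split in the same comparison. Of 14 tested, 3 were higher and 8 lower in VAT at 24 months, with a median of -1.69, and 3 were higher and 6 lower at 3 months. Lower in VAT at both ages were Ccr3, Prg3, Gata2 (a transcription factor of eosinophils, basophils and mast cells), Cebpe (a factor of granulocyte maturation), Hdc (which makes histamine) and Clec4a4. At 3 months the call of Gata2 was lost with the compared groups alone (0.0566) and that of Cebpe without spleen replicate 2 (0.0598). Higher in VAT at both ages were Il1rl1, the IL-33 receptor, Ltc4s, which makes leukotriene C, and Adora2b, an adenosine receptor. Ltc4s stood at a mean of 7114 in 24-month VAT and 46.6 in spleen, and macrophages express it too. Of the eosinophil chemokines and their receptors, 6 of 8 were higher and 2 lower in VAT at 24 months. Ccl11, which encodes eotaxin, stood at a mean of 2782 in VAT and at 1 in every wild-type spleen library, and Ccl24 stood at 10663 and 294.

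With age in VAT, Ear2 and Ear1 fell and Prg2 rose, and the other 4 genes found did not pass the test. That is 3 of 7 called, 1 higher and 2 lower, where 5.40% of all genes tested were called, 2.23% higher and 3.17% lower. The median log2 difference of the 7 genes was -0.78, beside 0.04 over all genes. The libraries of these 3 genes did not overlap between ages, as was the case for 22.9% of all genes.

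Ear2 fell from 18624 ± 3936 (SD, n = 3) at 3 months to 3514 ± 1491 (SD, n = 4) at 24 months, which is 5.30-fold. Its highest 24-month library, at 4948, lay below its lowest 3-month library, at 14972. The log2 difference was -2.51 (SE 0.31, adjusted p = 4.31e-04), and the adjusted p stayed between 2.89e-13 and 0.0167 over the alternatives.

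Ear1 fell from 124 ± 14.6 (SD, n = 3) to 31.0 ± 13.8 (SD, n = 4), which is 4.02-fold (log2 -2.13, SE 0.54, adjusted p = 0.0326). This call was less firm. It was lost with the 2 VAT age groups alone (0.0615) and without each 3-month library (0.0816, 0.0977 and 0.147). Without 24-month replicate 2 (0.0508) or 4 (0.0650) it was lost too, in a range of 0.00564 to 0.147. It was also lost with the replicate number as a block (0.0578). Without replicate 4, whose value of 10.4 was the lowest, the difference was -1.69.

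Prg2 rose from 56.8 ± 35.6 (SD, n = 3) to 263 ± 112 (SD, n = 4), which is 4.63-fold (log2 2.29, SE 0.49, adjusted p = 0.0134). All 4 libraries at 24 months, from 171 upward, lay above the highest 3-month library, at 95.6. Without 3-month replicate 3 the difference was 1.83 (adjusted p = 0.0997, range 0.00945 to 0.0997). Even at 24 months, Prg2 in VAT stood at 314.1 ± 134 per kilobase of exon, against 9321 ± 5790 in spleen.

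Siglecf had a log2 difference of -1.02 (SE 0.70, adjusted p = 0.445) and Il5ra one of -0.78 (SE 0.84, adjusted p = 0.653). Both depended on 24-month replicate 4, without which they were -0.23 (adjusted p = 0.863, range 0.205 to 0.863) and 0.02 (adjusted p = 0.995, range 0.367 to 0.995). Epx did not leave 1 in any library, and Ear6 did so in 1 of 7. Ear3 and Ear12 had a log2 difference of -2.24 (SE 0.82, adjusted p = 0.131), and their 3-month libraries lay above those at 24 months. Rnase2a had one of -1.53 (SE 0.91, adjusted p = 0.363) with overlapping groups.

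Replicate 4 of 24-month VAT was the lowest of its group for Ear1, Ear2, Siglecf, Il5ra, Ear3 and Ear12, Rnase2a and Ccr3, and the highest for Prg2. In that library B cell markers summed to 10808, against 2622 to 3156 in the other 3. Neutrophil markers summed to 5760 against 17073 to 18367, IL-4 responsive macrophage genes to 137254 against 425488 to 549567, and alveolar-type macrophage genes to 63326 against 20476 to 23057. The part of these in the results was not tested. Without that library Ear2 still fell by 2.18 (adjusted p = 2.57e-04) and Prg2 rose by 2.05 (adjusted p = 0.0337).

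The 6 eosinophil-defining genes summed to 2484, 1911 and 1095 at 3 months and to 3986, 1749, 1581 and 1166 at 24 months, and these ranges overlapped. Ccr3 was the highest of the 6 in each of these libraries, so the sum mainly follows Ccr3 and says little of Prg2 or Epx. Of 14 other eosinophil genes 0 rose and 2 fell, with a median of -0.20. These were Cebpe, at means of 723 and 215 (log2 -1.87, adjusted p = 0.0113), and Cd24a, a surface glycoprotein of many immature blood cells, at 8142 and 2747 (log2 -1.81, adjusted p = 0.0167). Both calls were lost without 3-month replicate 2 (0.0543 and 0.0630) or 3 (0.0726 and 0.0883), and that of Cd24a with the VAT age groups alone (0.0918). Over the alternatives the adjusted p ran from 3.56e-04 to 0.0726 for Cebpe and from 0.00304 to 0.0918 for Cd24a. The ratio of Ear2 to Ccr3 was 10.2, 17.7 and 31.5 at 3 months and 1.59, 4.80, 3.17 and 2.35 at 24 months. This ratio did not overlap between ages, and neither did Ear2 alone. How often other ratios separate the ages was not tested.

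Of the genes of the IL-5 receptor and its signalling, 4 of 23 fell with age in VAT, with a median of -0.14. Il5, which encodes the ligand, stood at a mean of 154 at 3 months and 5.71 at 24 months (log2 -4.73, SE 0.88, adjusted p = 0.00617), and edgeR did not call it (0.102 with TMM and 0.0997 with RLE, range 0.00144 to 0.102). Jak2, a kinase bound to the receptor, fell from 2511 to 917 (log2 -1.48, SE 0.24, adjusted p = 0.0027, range 2.08e-06 to 0.0237). Csf2rb, the chain that the receptors of IL-5, IL-3 and GM-CSF share, fell from 9111 to 4714 (log2 -1.02, SE 0.22, adjusted p = 0.0147). That call was lost with the VAT age groups alone (0.0617) and without 3-month replicate 2 (0.0501) or 3 (0.0841, range 0.00132 to 0.0841). Stat3 also fell (adjusted p = 0.015), a call lost without any 1 of the 3-month libraries (0.0704, 0.0539 and 0.052, range 0.00137 to 0.0704). Of 8 eosinophil chemokines and receptors tested, 0 passed the test in limma. Ccl11 stood at 901 and 2782 (log2 1.62, adjusted p = 0.0511).

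Of 14 alveolar-type macrophage genes tested 0 rose and 1 fell, which was Cd2, with a median of -0.15. Of 15 IL-4 responsive macrophage genes 0 rose and 2 fell (Socs2 and Ccl22), with a median of -0.66. Of 7 other Siglec genes, 10 mast cell and basophil markers, 13 neutrophil markers, 8 adipocyte markers and 4 other RNase A genes, 0 passed the test. Markers of other cells did move with age in VAT. Of 10 B cell markers 5 rose, and their sum went from between 904 and 1374 to between 2622 and 10808. Of 10 erythroid markers 7 fell, with a median of -2.61. With the VAT age groups alone, 3 of the 5 B cell calls (Blk, Cd79b and Ms4a1) and 5 of the 7 erythroid calls (Alas2, Hba-a1, Hba-a2, Hbb-b1 and Hbb-bs) were lost. Without 3-month replicate 3, Blk, Cd79b and those erythroid genes other than Hba-a1 were not called. Some of these calls were lost without replicate 1 or 2, and that of Alas2 without 24-month replicate 1, 2 or 4. Alas2 was also not called in edgeR (0.104 with TMM and 0.102 with RLE), in DESeq2 (0.0973) or in the VAT table (0.065). Of 11 large peritoneal macrophage markers 1 fell, of 12 T cell and NK markers 2 fell, of 12 Ly6C-low monocyte genes 2 rose and 1 fell, and of 10 Ly6C-high monocyte genes 1 rose and 2 fell. The part of these in the results for Ear1, Ear2 and Prg2 was not tested.

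With age in spleen, 0 of the 7 genes passed the test in limma, where 6.20% of all genes did, and 0 were called by edgeR or DESeq2. At an unadjusted p under 0.05 there was 1 of 7, Prg2, against 22.0% of all genes. The comparison rests on 2 libraries at 3 months, which differed widely in the set. Replicate 1 held 8.14 of Ear6, 81.4 of Epx, 1773 of Prg2 and 57.0 of Il5ra, and replicate 2 held 172, 706, 5067 and 374. For Ear2, Siglecf and Ccr3 replicate 1 was the higher. Mast cell and basophil markers summed to 2144 in replicate 1 and 9669 in replicate 2, and the part of this in the results was not tested.

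Prg2 had a log2 difference of 1.21 (SE 0.56, adjusted p = 0.217), Il5ra 1.37 (SE 0.95, adjusted p = 0.440) and Siglecf -1.03 (SE 0.80, adjusted p = 0.501). Ear2 had -0.41 (SE 0.35, adjusted p = 0.547) and Ear1 -0.13 (SE 0.62, adjusted p = 0.954). Ear6 and Epx had 1.55 (SE 1.24, adjusted p = 0.515) and 1.04 (SE 0.87, adjusted p = 0.537), and both turned negative without 3-month replicate 1, at -0.57 and -0.51. In each of the 7 genes the 3-month and 24-month ranges overlapped, whereas in 27.3% of all genes they did not.

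The age difference of Ear2 was larger in VAT than in spleen. The difference of the 2 differences was -2.10 (SE 0.47, adjusted p = 0.0293), and Ear2 was 1 of 7 genes called, against 2.74% of all genes. The call was lost without any 1 of 7 libraries, namely 3-month VAT replicate 2 (0.0653) or 3 (0.0871), 24-month VAT replicate 3 (0.0521), 3-month spleen replicate 1 (0.0594) or 2 (0.0743) and 24-month spleen replicate 2 (0.0528) or 3 (0.0547). The log2 value itself stayed between -2.35 and -1.77. For Ear1 the difference was -2.0 (SE 0.82, adjusted p = 0.228) and for Il5ra -2.14 (SE 1.26, adjusted p = 0.423).

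In spleen Hdc alone of 14 other eosinophil genes passed the test with age. It fell from a mean of 11225 to 2649 (log2 -2.11, SE 0.39, adjusted p = 0.00843), a call lost with the spleen age groups alone (0.0865) and without 3-month replicate 1 (0.0906, range 6.07e-06 to 0.0906). Of 23 genes of IL-5 receptor signalling 0 rose and 4 fell, which were Csf2rb, Jak1, Socs3 and Mcl1. Each of these 4 calls was lost without 3-month replicate 1 (0.242, 0.144, 0.456 and 0.0719) and with the spleen age groups alone (0.117, 0.0987, 0.26 and 0.133). Each was also lost without at least 1 further library. Their highest adjusted p over the alternatives was 0.242, 0.453, 0.456 and 0.133. Il5 stood at 1 in all wild-type spleen libraries. Of 13 neutrophil markers 0 rose and 5 fell, and their sum went from between 701843 and 862487 at 3 months to between 193163 and 391384 at 24 months. All 5 of these calls were lost with the spleen age groups alone (0.0911 to 0.117) and without 3-month replicate 1 (0.0861 to 0.177), and those of Mmp9, S100a8 and S100a9 without 3-month replicate 2 as well.

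The genotype comparison at 24 months asked whether loss of Nlrp3 was accompanied by a difference in these genes. None of the 5 genes found in the VAT table passed the test in limma (0 of 5), where 0.00764% of all genes, 1 gene, did. DESeq2 and edgeR also called 0 of 5. At an unadjusted p under 0.05 there was 1 of 5, Il5ra, against 6.09% of all genes. The 2 genotypes overlapped in all 5 genes, and did not in 3.48% of all genes. Values here come from the VAT table, whose scale differs from that of the wild-type table.

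**Figure D4:**
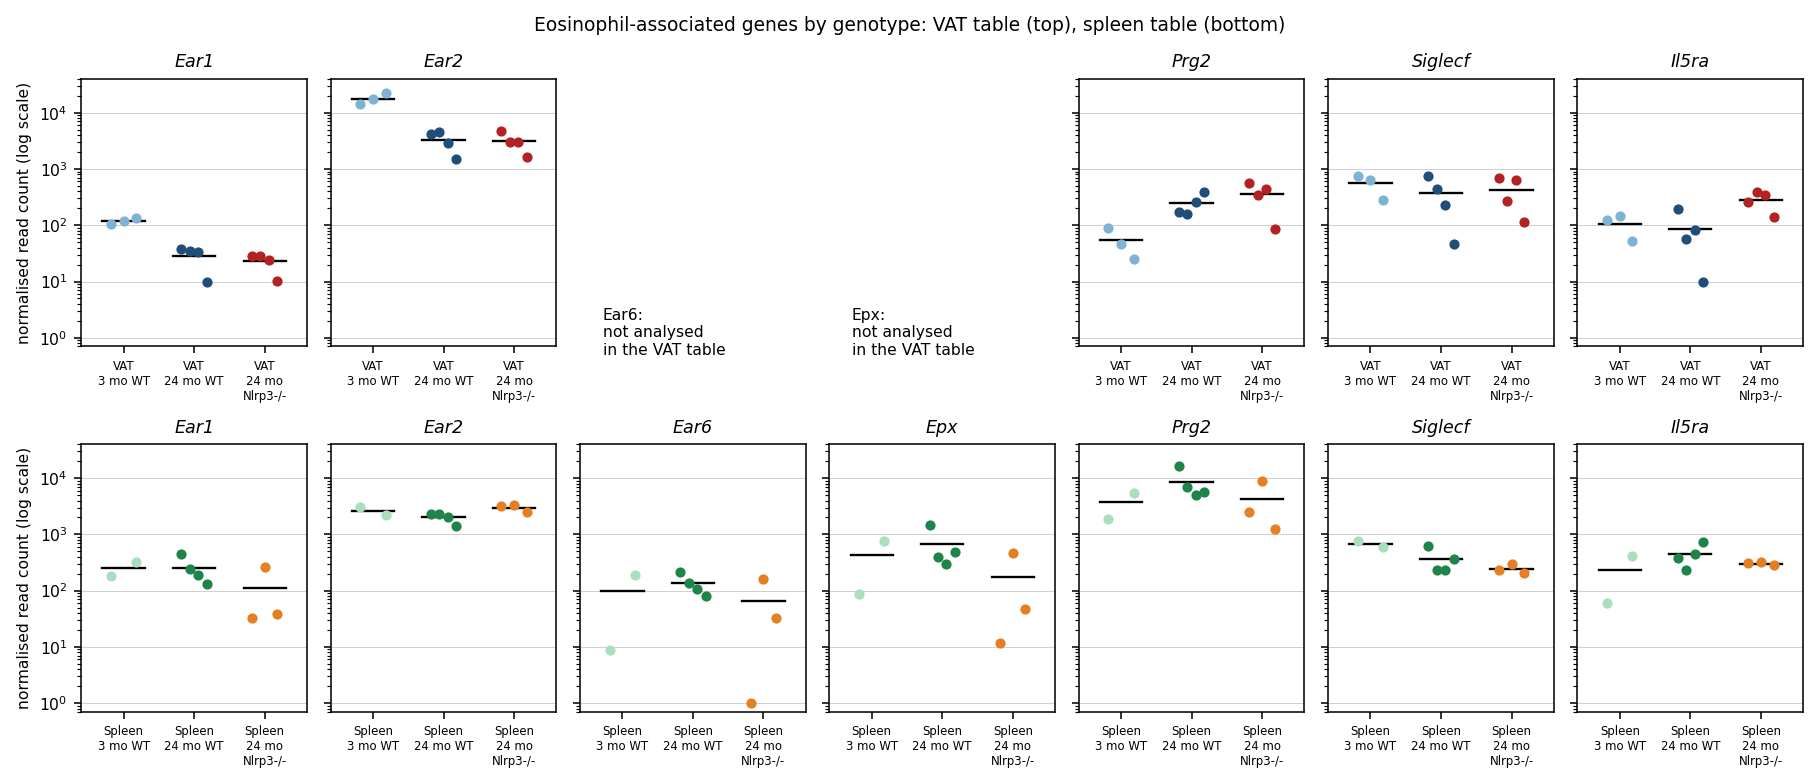
Normalised read counts (log scale) by genotype and age, with VAT libraries (VAT table) in the top row and spleen libraries (spleen table) in the bottom row. Points are libraries and bars are group means. In VAT the 2 groups of 24 months overlap in each gene, and in spleen the Ear2 libraries of the 2 genotypes do not.

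Il5ra stood at 194, 56.7, 83.2 and 9.86 in wild-type and at 257, 388, 338 and 141 in Nlrp3-/- VAT. Nlrp3-/- libraries 1 to 3 lay above each wild-type library, and replicate 4 lay below wild-type replicate 1. The log2 difference was 2.22 (SE 0.69, unadjusted p = 0.00604 in limma, adjusted p = 0.664). Without wild-type replicate 4 it was 1.42 (adjusted p = 0.449, range 0.329 to 0.926).

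Ear2 stood at 4151, 4582, 2851 and 1530 in wild-type and at 4710, 3034, 3047 and 1652 in Nlrp3-/- VAT. The ranges nearly coincided, at a log2 difference of -0.05 (SE 0.33, adjusted p = 0.990). Both lay below the 3-month wild-type libraries of the same table, at 14248, 17356 and 22038. Ear1 stood at 37.4, 35.0, 33.3 and 9.86 and at 28, 28.4, 24.6 and 10.2 (log2 -0.27, SE 0.56, adjusted p = 0.980). Ear2 over Ear1 was 168, 107, 124 and 162 in the Nlrp3-/- libraries and 111, 131, 85.6 and 155 in the 24-month wild-type libraries, and these ranges overlapped.

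Prg2 stood at 175, 159, 261 and 392 in wild-type and at 554, 349, 448 and 85.4 in Nlrp3-/- VAT (log2 0.35, SE 0.55, adjusted p = 0.962). Siglecf stood at 757, 448, 227 and 46.6 and at 696, 268, 642 and 115 (log2 0.48, SE 0.73, adjusted p = 0.959). In both genes the groups overlapped. Replicate 4 was the lowest of the Nlrp3-/- libraries for all 5 genes, and it also held the 200.4 counts of Nlrp3. The eosinophil-defining genes found in this table, 4 of 6, summed to between 1098 and 3736 in wild-type and between 944 and 3299 in Nlrp3-/- VAT. Mast cell and basophil markers summed to between 2826 and 3865 and between 4162 and 16438. Of 23 genes of IL-5 receptor signalling and 13 other eosinophil genes, 0 passed the test in limma.

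In spleen 0 of the 7 genes passed the test for genotype in limma, where 0.00766% of all genes, 1 gene, did, and edgeR and DESeq2 called 0 of 7. At an unadjusted p under 0.05 there were 4 of 7, which were Ear1, Ear2, Epx and Prg2, against 6.19% of all genes. The median log2 difference of the 7 genes was -1.32, beside 0.01 over all genes. The 7 genes are read from the same libraries and are not independent of each other.

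Ear2 stood at 2328, 2277, 2077 and 1408 in wild-type and at 3153, 3296 and 2473 in Nlrp3-/- spleen. Each Nlrp3-/- library lay above each wild-type library of that age, as was the case for 7.55% of all genes in either direction. The log2 difference was 0.57 (SE 0.20, adjusted p = 0.782). Summed levels of other lists were separated between genotypes in the same direction. Pan-macrophage markers summed to between 277693 and 321778 in Nlrp3-/- and between 177545 and 237979 in wild-type spleen, and IL-4 responsive genes to between 40116 and 82573 and between 21958 and 33873. Ly6C-high monocyte genes summed to between 133363 and 171475 and between 87949 and 120551, alveolar-type genes to between 49309 and 87254 and between 33400 and 48487, and the 3 adipocyte markers found to between 5413 and 5768 and between 3776 and 5254. The IL-4 responsive, Ly6C-high and alveolar-type lists share the gene Chil3, so their sums are not independent. In these lists 0 genes passed the test in limma, with median log2 differences of 0.16, 0.46 and 0.05. Pan-macrophage and adipocyte markers also had 0 called, with medians of 0.26 and 0.38. The part of these sums in the result for Ear2 was not tested.

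The other ribonucleases and the granule genes were lower in mean, with 1 library apart. Ear1 stood at 442, 243, 189.6 and 129 in wild-type and at 32.6, 258 and 38.8 in Nlrp3-/- spleen. Epx stood at 1460, 393, 296 and 496 and at 11.8, 459 and 46.5. Nlrp3-/- replicate 2 lay within the wild-type range in both, and replicates 1 and 3 lay below it.

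In Ear6 and Prg2 too, replicate 2 was the highest of the Nlrp3-/- libraries. Ear6 stood at 215, 136, 107 and 78.7 in wild-type and at 1, 159 and 32.9 in Nlrp3-/- spleen. Prg2 stood at 16341, 6826, 5107 and 5753 and at 2509, 8959 and 1246. The log2 differences were -1.70 for Ear1 (SE 0.68), -3.05 for Epx (SE 0.98), -2.51 for Ear6 (SE 1.27) and -1.32 for Prg2 (SE 0.54), with adjusted p of 0.782, 0.782, 0.809 and 0.782. Without Nlrp3-/- replicate 2, Ear1 had -2.64 (adjusted p = 1, range 0.480 to 1) and Epx -4.45 (adjusted p = 0.767, range 0.417 to 0.981). That replicate also held the highest sum of neutrophil markers, at 1134909, against 687291 and 394157 in replicates 1 and 3, and the part of this in the results was not tested.

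Ear2 over Ear1 was 96.7, 12.8 and 63.8 in Nlrp3-/- spleen. These values lay above each wild-type spleen library of 24 months, as did Ear2 alone. Replicate 2 lay within the wild-type spleen range over both ages, 5.27 to 16.8, and replicates 1 and 3 lay above it. Replicate 1 also lay within the wild-type VAT range of 85.6 to 164. The receptors stood closer together. Il5ra was at 384, 230.4, 453 and 722 in wild-type and at 304, 320.2 and 283 in Nlrp3-/- spleen (log2 -0.45, SE 0.54, adjusted p = 0.924). Siglecf was at 634, 230.4, 236 and 360.2 and at 233, 302 and 206 (log2 -0.45, SE 0.38, adjusted p = 0.882). Both overlapped between genotypes. Of 14 other eosinophil genes and 22 genes of IL-5 receptor signalling, 0 passed the test in limma. Prg3 stood at 787, 235, 338 and 202 and at 116, 237 and 206 (log2 -0.91, adjusted p = 0.822), and Ccr3 at means of 5523 and 6124.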

How the data were processed

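Libraries were made from oligo-dT selected RNA with dUTP marking of strand, per the labels' protocols. The submitters' processing notes name mm10 and the programs DESeq2, Partek, TopHat and CASAVA 1.8.2. What each did, and the counting of reads and strand, are not given in the sources used here. The deposited signal is a normalised read count per gene and library. Values above 1 were whole multiples of 1 step per library, at least 99.777% within 0.05 read, so reads were recovered for edgeR and DESeq2, with 1 taken as 0 reads. Values of log2(value + 1) were fitted per table by limma-trend (limma 3.58.1 on R 4.3.3), for genes with a mean of at least 10 (13702, 13090 and 13053 genes). Tests were two-sided, p-values were adjusted by Benjamini and Hochberg over every gene of the fit, and 0.05 was the threshold. Age and tissue were compared in the wild-type table and genotype in the VAT and spleen tables. The fits were tested on simulated data. A fold against a group at 1 uses the mean 3-read floor of that group, which covers counting error only. No batch is given in the labels. The members and the 18 gene lists were chosen with earlier results of these data known. Genes named are the members, the sort markers, Nlrp3, the lists of other Ear and other eosinophil genes, up to 4 called genes of each other list, and the 5 nearest profiles of members spanning over 2 log2. Ccl24 and the uncalled Ccl11 for age fall outside that rule and were chosen after their values were seen. A result for 1 gene of the IL-5 receptor signalling list is not reported here. Alternatives were a pseudocount of 10, no filter, a mean of at least 50, quantile normalisation, edgeR 4.0.16 (TMM or RLE scaling), DESeq2 1.42.0, the compared groups alone, a replicate block, the tissue tables for age, and each library left out.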

Additional observations from a re-analysis of the deposited data

Results flagged for a closer look

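In groups of 4 libraries, 18 sets of values of the 7 genes were examined for a library far from the others, and 4 stood out. Chance flags about 1 in 20 of independent sets without ties, whereas these sets share libraries and some hold ties at 1. In 24-month wild-type VAT (wild-type table), replicate 4 held 10.4 normalised counts of Ear1, the lowest, with 35.8 to 39.8 in the others. Replicate 1 held 30.7 of Ear6, with the other 3 libraries at 1. In 24-month wild-type spleen, replicate 1 was the highest for Epx, at 1342 against 272 to 455, and for Prg2, at 15026 against 4697 to 6247. The eosinophil-defining sum of that library was 23946, against 10349 to 13304. This sum includes Epx and Prg2 and is not a separate observation.

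The age difference of Ear2 differed between tissues, by -2.10 on the log2 scale (VAT minus spleen, SE 0.47, adjusted p = 0.0293 in limma). This call was lost on leaving out single libraries, among them 3-month spleen replicate 1 (0.0594) or 2 (0.0743).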

How the results depend on the processing

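Of the alternative values of single genes of the set, 708 kept their direction and side of the threshold, 20 lost a call and 25 turned. Leaving out 1 library left 1 to 3 genes of the set called for age in VAT, 0 to 1 for the difference of age effects, 5 to 6 and 3 to 4 for tissue at 24 and 3 months, and 0 for the other comparisons. Among other settings, age in VAT gave 2 with the VAT age groups alone and 2 with the replicate block, and tissue at 24 months 5 in edgeR with RLE. The causes were not tested. With DESeq2 the genes called numbered 1168 (age in VAT), 1429 (age in spleen), 798 (difference of age effects), 30 (genotype in VAT) and 16 (genotype in spleen), beside 740, 850, 375, 1 and 1. The VAT table gave 1225 for age in VAT, and the spleen age groups alone 17. Leaving out 1 library gave 216 to 794 (age in VAT), 180 to 948 (age in spleen), 123 to 655 (difference of age effects) and 1 to 3 (genotype in VAT).

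Directions that turned all belonged to values that had not passed the test. Siglecf between tissues at 24 months was 0.19 in edgeR with TMM, 0.24 with RLE and 0.24 in DESeq2. The difference of age effects of Ear6 was 0.12 with quantile normalisation, 5.50 and 5.53 in edgeR and 4.78 in DESeq2. Leaving out 1 library gave, for age, Il5ra -1.37 to 0.02 in VAT, and in spleen Ear1 -0.53 to 0.27, Ear6 -0.57 to 3.67 and Epx -0.51 to 2.59. For tissue it gave Siglecf -0.76 to 0.57 at 24 months and -0.51 to 0.22 at 3 months, and Il5ra -1.85 to 0.84 at 3 months. For the difference of age effects it gave Ear6 -2.67 to 1.57 and Epx -2.59 to 0.51. For genotype in VAT it gave Ear1 -0.70 to 0.06, Ear2 -0.38 to 0.22 and Siglecf -0.31 to 1.02.

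Correlations of deviations between same-numbered libraries were -0.045 to 0.077 in the wild-type table, -0.146 to 0.240 in VAT and -0.023 to 0.048 in spleen. Those between differently numbered libraries were -0.071 to 0.089, -0.292 to 0.161 and -0.062 to 0.062. The medians were 0.016, 0.036 and 0.011 for the same number, and -0.01, -0.016 and -0.008 for different numbers. The numbers were not taken to pair libraries, though these small correlations cannot exclude it. With the replicate block Ear1 was lost for age in VAT (-1.77), Ear1 turned for age in spleen (0.30) and Siglecf for tissue at 3 months (0.15). The block called 2 genes for genotype in VAT and 5 in spleen, and 683 for age in VAT. Depth limits Ear6, Epx and Ear1 in VAT, where some or all libraries lie near the limit of 3 reads or hold few reads. Groups of 2 and 3 libraries limit the spleen comparisons.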

Other observations

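The genes whose profiles lay nearest to those of the set, by root mean square difference of centred log2 values, differed between members. Over the 11 VAT libraries Ear1 lay nearest to Ear2 (0.28), then to Aldh1a2, a retinal dehydrogenase (0.30), Ltb4r1, a leukotriene receptor (0.35), Hebp2 (0.36) and Fn1, fibronectin (0.38). Ear2 lay nearest to Aldh1a2 (0.21), then to A530064D06Rik (0.28), Skint3 (0.28), Ear1 (0.28) and Hopx (0.30). Siglecf lay nearest to Aqp9, a glycerol channel (0.31), Serpinb2 (0.32), Pglyrp1 (0.38), Nfe2 (0.41) and Fam101b (0.44). Il5ra and Prg2 had no profile as near, with Il2ra at 0.78 and Podxl2 at 0.66 as their first. Prg2 stood at 2.42 from Ear2 and 1.90 from Siglecf, so the eosinophil genes did not share 1 profile in VAT. The profiles rest on the same libraries and depths, and reads shared by Ear1 and Ear2 were not separated.

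Over the 9 spleen libraries Ear6 and Epx were each other's nearest gene of the table (0.81). Prg2 was the gene ranked 11 for Ear1, at 0.77, behind Gm13051 (0.36) as the first, and Prg2 itself lay nearest to 5033406O09Rik (0.39) and Homer1 (0.53). Il5ra lay nearest to Nsdhl (0.34). Ear2 and Siglecf spanned 1.23 and 1.86 on the log2 scale in spleen, too little for this description. Prg2 over Epx was 11.2, 17.4, 17.2 and 11.6 in 24-month wild-type spleen and 213, 19.5 and 26.8 in Nlrp3-/- spleen, with Epx near its floor in replicate 1. Ear2 over Ccr3 was 0.362, 0.344, 0.393 and 0.375 in 24-month wild-type spleen and 0.521, 0.404 and 0.595 in Nlrp3-/- spleen. Each Nlrp3-/- library lay above each wild-type library of that age, as did Ear2 alone. The 3-month wild-type libraries stood at 0.436 and 0.470, above Nlrp3-/- replicate 2.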
